A study of Mus musculus with 6 samples.

Results

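The F-box gene family and its adaptor Skp1 were examined in mouse CD8+ T cells across 6 libraries of RNA-seq. Genes were taken whose symbol begins with Fbxo, Fbxl or Fbxw and a digit, together with Skp1, Skp2, Ccnf and Btrc. Among the 18288 deposited genes, 64 met this, and the 55 with a mean of at least 10 over the 6 libraries were kept. They comprised 29 genes of the FBXO class (Ccnf among them), 15 of FBXL (with Skp2), 10 of FBXW (with Btrc) and Skp1, which has no F-box. Just inside the limit stood Fbxo15 with a mean of 10.6, and just outside it Fbxl12os, annotated by RefSeq as a transcribed pseudogene, with 7.76. The other 8 genes left out were Fbxo2, Fbxo24, Fbxo27, Fbxo39, Fbxo40, Fbxo41, Fbxl13 and Fbxl21.

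The cells had been activated in culture and were collected on day 2. One group is labelled Nae1T-KO and the other Nae1WT, with 3 biological replicates each. Nae1 encodes a subunit of the enzyme that activates the ubiquitin-like protein NEDD8. The sources used here do not give the promoter or Cre line behind the deletion, the strain or age of the mice, the activating stimulus, or whether replicates came from separate mice. The p-values therefore measure only how these samples spread. The comparison asks how transcripts of the substrate receptors of one large ligase family differ between the genotypes.

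SKP1, CUL1, RBX1 and 1 F-box protein form an SCF complex, also called CRL1. The F-box protein binds SKP1 through its F-box and holds the substrate through a second domain: WD40 repeats in FBXW proteins, leucine-rich repeats in FBXL proteins and other domains in FBXO proteins. NEDD8 attached to CUL1 switches the ligase on, and its removal lets the exchange factor CAND1 swap one receptor for another. In dividing lymphocytes these ligases are known for timing the destruction of cyclins, CDK inhibitors, MYC and inhibitors of NF-kB.

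Values are normalized counts, which are reads assigned to a gene divided by 1 size factor per library. The libraries held 15628252 to 25444653 recovered reads. Nae1 had normalized counts of 390.3, 338 and 367 across Nae1T-KO replicates 1 to 3, next to 1601, 1806 and 1882 for Nae1WT, with no overlap, in accord with the labels. Cd8a stood at 6079.7 to 8186 and Cd3e at 1914 to 2359.9 in all libraries, and Cd4 at 20.1 to 119. Of the 10 tested CD8 T cell identity genes 3 were called, beside 12.7% of all tested genes. The 3 were 1 lower and 2 higher. Their log2 fold changes were -0.51 ± 0.08 (SE, limma, adjusted p = 0.00365) for Cd3g, 0.28 ± 0.07 (SE, limma, adjusted p = 0.0227) for Zap70 and 0.48 ± 0.11 (SE, limma, adjusted p = 0.0245) for Cd28. Markers of other cells were present at low levels. The summed erythroid markers (9 of 10 in the table) were 378, 2059 and 203 (Nae1T-KO) next to 145, 319.9 and 659 (Nae1WT), and the B cell markers (11 of 13) were 692, 1633 and 708 (Nae1T-KO) next to 559.9, 465 and 837 (Nae1WT), both highest in Nae1T-KO replicate 2. Myeloid and dendritic markers (8 of 14) summed to 80.5, 152 and 94.9 (Nae1T-KO) next to 39.3, 22.0 and 35.8 (Nae1WT). CD4 T cell markers (8 of 8) summed to 1482, 1090.1 and 968 (Nae1T-KO) next to 540.3, 735 and 959 (Nae1WT). All 8 had positive estimates and 0 were called. The largest means were those of Il13 (422 in Nae1T-KO, 149 in Nae1WT) and Gata3 (347 and 282). Cd4 itself had means of 70.3 and 60.9 (limma, adjusted p = 0.899). NK and gamma-delta markers (5 of 8), which include Nkg7 and Eomes that CD8+ effector cells also express, summed to 3401, 2831 and 2930.3 (Nae1T-KO) next to 4945, 5231 and 5200.0 (Nae1WT). Of the 3 tested, 2 were called, both lower. Their log2 fold changes were -0.72 ± 0.09 (SE, limma, adjusted p = 8.83e-04) for Nkg7 and -0.86 ± 0.11 (SE, limma, adjusted p = 0.00159) for Eomes. The deposited table held no gene with fewer than 11 recovered reads over all libraries, so no marker in it could be at 0 throughout. The part of these cells in the F-box differences was not tested. Without Nae1T-KO replicate 2 the same test called 5 of the 7 genes described next, and Ccnf and Fbxw8 were not called. Xist was high in 3 libraries (Nae1T-KO replicates 1 and 2 and Nae1WT replicate 3), which marks them as female. In bulk RNA, fewer cells of a type and less RNA per cell cannot be told apart.

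Between the genotypes 7 of the 55 genes differed, 5 higher and 2 lower in Nae1T-KO. Fbxl19, Fbxw7, Ccnf, Fbxo11 and Fbxo45 rose, by 1.31-fold to 1.68-fold, and Fbxo8 and Fbxw8 fell, by 1.38-fold and 1.24-fold. The test was limma on log2(normalized count + 1), and a call is an adjusted p under 0.05 over all 13819 genes tested. Of all tested genes 12.7% were called, 6.53% higher and 6.18% lower, and 12.7% of the 55, so the count is no result about F-box genes. Over all tested genes 903 were higher and 854 lower, and 1176 and 621 with total-count scaling. The groups did not overlap for 23 of the 55, 14 higher and 9 lower, beside 33.7% of all tested genes. The 14 include Fbxo15, which was tested only because its Nae1T-KO libraries reached 10. The median log2 fold change was 0.04 over the 55 and -0.01 over all tested genes. The count rests in part on single libraries. It was 4 without Nae1WT replicate 2, where Ccnf, Fbxo45 and Fbxo8 were not called, and 5 to 8 when any other library was left out.

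**Figure D1:**
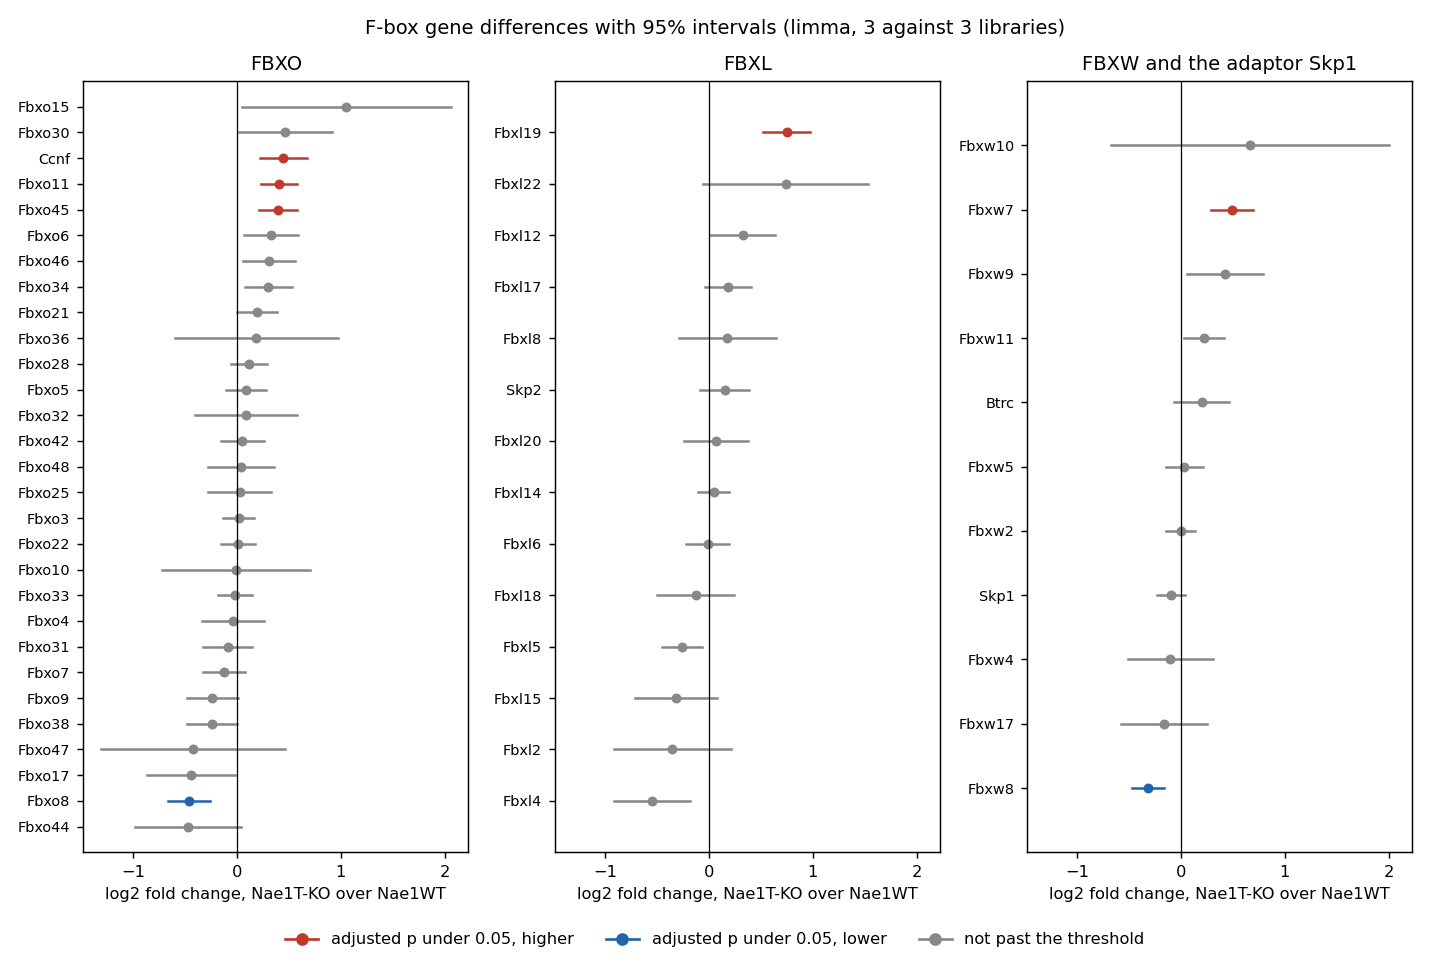
Log2 fold change of 54 of the 55 genes (x axis, Nae1T-KO over Nae1WT, 0 marked by a line) with its 95% interval from limma, in 3 panels by class, with Skp1 beside the FBXW genes. Red and blue mark the 5 genes higher and the 2 lower at an adjusted p under 0.05. Most points lie near 0, and the wide intervals belong to genes of low count such as Fbxo15 and Fbxw10.

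Skp1, the adaptor that every SCF complex shares, was the most abundant of the 55. It had normalized counts of 3928, 3829 and 4082 across Nae1T-KO replicates 1 to 3, next to 4218, 4256 and 4199 for Nae1WT. Each Nae1T-KO library was below each Nae1WT library, but the log2 fold change was only -0.10 (limma, 95% interval from -0.23 up to 0.04, adjusted p = 0.315). Skp1 lies at chromosome 11, bases 52230522 to 52246858, of build GRCm38 (mm10), and its span overlaps that of Tcf7 by 332 bases. Tcf7 had 2942 ± 298 and 2835 ± 230.4 (SD, n = 3 each).

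Levels of different genes were compared as normalized counts per kilobase of exon, averaged over the 6 libraries. On this scale Skp1 stood at 2192, followed by Fbxo5 at 727, Fbxw11 at 532, Fbxl14 at 519 and Fbxo11 at 476. Fbxo5 encodes EMI1, an inhibitor of the anaphase-promoting complex, and FBXW11 is one of the paired beta-TrCP receptors. The lowest 3 were Fbxo10 at 6.10, Fbxl22 at 5.53 and Fbxo15 at 5.16. The range across genes in activated CD8+ cells was thus far wider than the difference between genotypes for any 1 gene. Fbxl6 at 459.8 and Fbxw2 at 447 came close behind the leading receptors. Fbxl14 and Fbxo11 exchanged order between the genotypes, with 527 and 543 per kb in Nae1T-KO and 511 and 409.6 in Nae1WT.

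**Figure D2:**
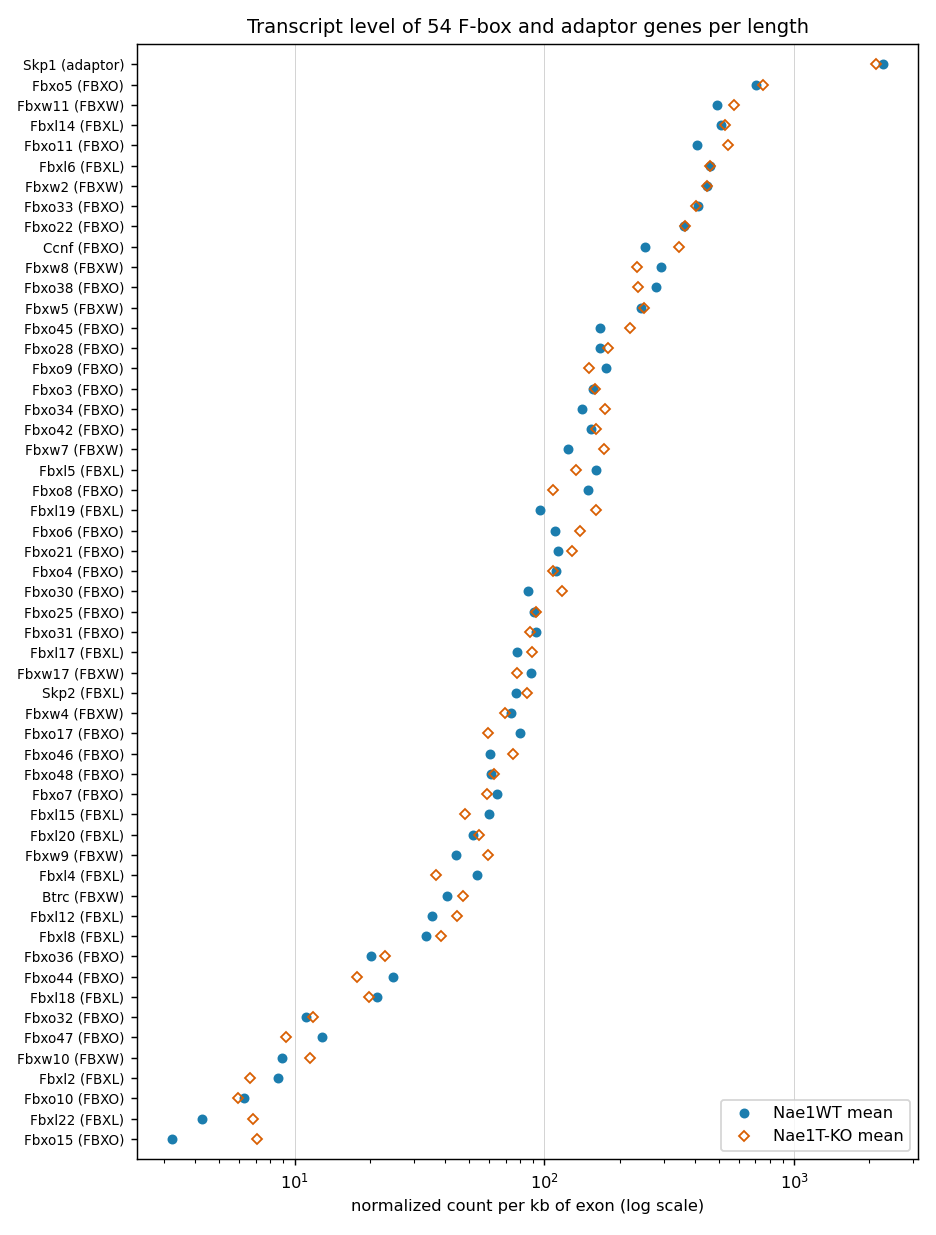
Mean level of 54 of the 55 genes in Nae1WT (filled circles) and Nae1T-KO (open diamonds), in normalized counts per kilobase of exon on a log axis, in order of the mean over all 6 libraries. Skp1 lies at 2192 and Fbxo15, the lowest, at 5.16.

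Among the FBXW genes, Fbxw7 rose and Fbxw8 fell. FBXW7 recognises phosphorylated degrons in cyclin E, MYC, JUN, NOTCH1 and MCL1. Fbxw7 had normalized counts of 935, 899.8 and 999 across Nae1T-KO replicates 1 to 3, next to 623, 751 and 649 for Nae1WT. The lowest Nae1T-KO library was above the highest Nae1WT library, and the means were 944 ± 50.1 against 674 ± 67.5 (SD, n = 3 each). The log2 fold change was 0.49 ± 0.09 (SE, limma, adjusted p = 0.00752). The gene lies at chromosome 3, bases 84814990 to 84979198, and its call held without any 1 library. Over all alternatives its adjusted p spanned 2.41e-04 to 0.0945, and the call ended only in a fit on 4 libraries with a replicate block. The Fbxw7 span overlaps those of Gm40080, by 36486 bases, and Gm46808, by 519 bases. Gm40080 had 16.6 and 25.8 in Nae1T-KO and Nae1WT, and Gm46808 had 3.05 and 1.48. Fbxw8 encodes a receptor that works with CUL7 rather than CUL1, and it had normalized counts of 1236, 1132 and 1169 across Nae1T-KO replicates 1 to 3, next to 1494, 1414 and 1484 for Nae1WT. Here every Nae1T-KO library was below every Nae1WT library. The means were 1179 ± 52.8 against 1464 ± 43.5 (SD, n = 3 each), a log2 fold change of -0.31 ± 0.07 (SE, limma, adjusted p = 0.0165). Fbxw8 lies at chromosome 5, bases 118064981 to 118155458, and its span overlaps that of Gm30466, which had 21.4 and 34.5 in Nae1T-KO and Nae1WT. With 1 library left out, its call ended without Nae1T-KO replicate 2 (-0.28, adjusted p = 0.0561) and without Nae1WT replicate 3 (-0.30, adjusted p = 0.0712). Over all alternatives the adjusted p spanned 0.00473 to 0.259.

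The paired beta-TrCP genes both had positive estimates that did not pass. These receptors bind the phosphorylated degron of NF-kB inhibitors, beta-catenin and WEE1. Fbxw11 had normalized counts of 2503, 2591 and 2085 across Nae1T-KO replicates 1 to 3, next to 2149, 1982 and 2010.0 for Nae1WT, where only Nae1T-KO replicate 3 fell within the Nae1WT range. Its log2 fold change was 0.22 (limma, 95% interval from 0.03 up to 0.41, adjusted p = 0.127), and it passed without that library (0.32, adjusted p = 0.0171; over all alternatives 0.0171 to 0.433). Btrc had normalized counts of 312, 286 and 251 across Nae1T-KO replicates 1 to 3, next to 254, 228 and 255 for Nae1WT, and the groups overlapped, with a log2 fold change of 0.20 (limma, 95% interval from -0.06 up to 0.46, adjusted p = 0.294). Per kb, Fbxw11 was at 532 and Btrc at 44.0. The Btrc span overlaps Gm6807, which had 117 and 115 normalized counts in the groups.

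The other 6 FBXW genes did not pass. Fbxw9 had normalized counts of 113 ± 9.25 against 84.5 ± 10.01 (SD, n = 3 each), with no overlap between the groups and a log2 fold change of 0.42 (limma, 95% interval from 0.06 up to 0.78, adjusted p = 0.121). Fbxw10 had normalized counts of 30.2, 49.4 and 37.4 across Nae1T-KO replicates 1 to 3, next to 35.6, 47.0 and 7.61 for Nae1WT. Nae1WT replicate 3 stood far below the other 5, and the sign of the Fbxw10 estimate of 0.66 turned without it (-0.0972). Mean normalized counts in Nae1T-KO and Nae1WT were 1443 and 1447 for Fbxw2, 171 and 180.4 for Fbxw4, 598 and 584 for Fbxw5 and 140.2 and 159 for Fbxw17. Fbxw2 was among the most even of all the genes, at 1421 to 1494 in the 6 libraries.

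Among the FBXL genes only Fbxl19 passed, with the largest change of the called genes. FBXL19 carries a CXXC zinc finger that binds unmethylated CpG islands, and it has also been described as a receptor for the interleukin-33 receptor ST2. It had normalized counts of 697, 738 and 628 across Nae1T-KO replicates 1 to 3, next to 398, 378 and 452 for Nae1WT. All 3 Nae1T-KO libraries stood well above the Nae1WT libraries, with means of 688 ± 55.8 against 409 ± 38.3 (SD, n = 3 each). The log2 fold change was 0.75 ± 0.10 (SE, limma, adjusted p = 0.00159), or 1.68-fold. Fbxl19 lies at chromosome 7, bases 127743887 to 127769483, overlaps no other measured gene, and passed in all 19 alternatives, with adjusted p from 9.37e-08 to 0.0477.

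SKP2, the receptor for the CDK inhibitor p27, is the FBXL protein best known from the cell cycle. Skp2 had normalized counts of 588, 488 and 554 across Nae1T-KO replicates 1 to 3, next to 519, 437 and 512 for Nae1WT. The groups overlapped, and the log2 fold change was 0.15 (limma, 95% interval from -0.08 up to 0.39, adjusted p = 0.376). Its span overlaps Lmbrd2 by 14898 bases, and Lmbrd2 had 557 ± 81.2 and 706 ± 34.8 (SD, n = 3 each). FBXL5 senses iron and targets the iron regulatory protein IRP2. Fbxl5 had normalized counts of 781, 721 and 727 across Nae1T-KO replicates 1 to 3, next to 799, 939.8 and 925 for Nae1WT, without overlap. Its log2 fold change was -0.25 (limma, 95% interval from -0.45 up to -0.06, adjusted p = 0.0802), and it passed without Nae1WT replicate 1 (-0.33, adjusted p = 0.0446; over all alternatives 0.0446 to 0.251).

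Fbxl4, whose product lies in mitochondria and restrains mitophagy, came nearest to the threshold from outside it. It had normalized counts of 97.3, 105 and 78.8 across Nae1T-KO replicates 1 to 3, next to 152, 124 and 134 for Nae1WT. The Nae1T-KO libraries were all lower, and the log2 fold change was -0.55 (limma, 95% interval from -0.92 up to -0.18, adjusted p = 0.0553). Fbxl12 had normalized counts of 177, 220.3 and 221 across Nae1T-KO replicates 1 to 3, next to 183, 162 and 148 for Nae1WT, with overlap and a log2 fold change of 0.32 (limma, 95% interval from 0.01 up to 0.64, adjusted p = 0.164). It overlaps Ubl5 by 2052 bases, which had 1678 ± 58.5 and 1315 ± 118 (SD, n = 3 each), and whether the counting used strand is not known. Fbxl22, a gene known from cardiac muscle, had only 26.8 ± 1.32 and 16.7 ± 7.15 (SD, n = 3 each), a log2 fold change of 0.74 (limma, 95% interval from -0.06 up to 1.53, adjusted p = 0.202). Fbxl14, the receptor for SNAIL proteins, was even, at 1455 to 1596 in all libraries. The means in Nae1T-KO and Nae1WT were 783 and 789 for Fbxl6, 472 and 447 for Fbxl20, 444 and 389 for Fbxl17, 156 and 168 for Fbxl18, 73.3 and 63.8 for Fbxl8, 64.9 and 81.2 for Fbxl15 and 23.0 and 29.6 for Fbxl2, and none of these passed.

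Of the 29 FBXO genes, Ccnf, Fbxo11 and Fbxo45 rose and Fbxo8 fell. Ccnf encodes cyclin F, a receptor of the G2 phase that targets CP110 and the ribonucleotide reductase subunit RRM2. It had normalized counts of 1549, 1546 and 1199.6 across Nae1T-KO replicates 1 to 3, next to 1072, 1042 and 1013 for Nae1WT. Nae1T-KO replicate 3 lay between the other 2 Nae1T-KO libraries and the Nae1WT libraries. The means were 1431 ± 201 against 1042 ± 29.7 (SD, n = 3 each), a log2 fold change of 0.45 ± 0.10 (SE, limma, adjusted p = 0.0172). This call was the least stable of the 7. It ended without Nae1T-KO replicate 1 (0.39, adjusted p = 0.0613) or 2 (0.39, adjusted p = 0.0608), and without Nae1WT replicate 2 (0.45, adjusted p = 0.0552) or 3 (0.43, adjusted p = 0.0637). Over all alternatives the adjusted p spanned 0.00101 to 0.123. The log2 difference between libraries of the same sex was 0.16 to 0.61 over the 4 possible pairs.

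FBXO11 is the receptor for BCL6, a repressor with a known role in lymphocyte fate. Fbxo11 had normalized counts of 2003, 2168 and 2373 across Nae1T-KO replicates 1 to 3, next to 1707, 1631 and 1601 for Nae1WT. The groups did not overlap, the means were 2181 ± 185 against 1646 ± 54.5 (SD, n = 3 each), and the log2 fold change was 0.40 ± 0.08 (SE, limma, adjusted p = 0.00861). The Fbxo11 call held without any 1 library. Over all alternatives its adjusted p spanned 2.58e-04 to 0.0837, and the call ended only in the fit on 4 libraries with a replicate block. Its span overlaps that of Msh6 by 34 bases, and Msh6 was level, at 2684 ± 72.6 and 2695 ± 225 (SD, n = 3 each). FBXO45 is an atypical member that pairs with the ligase MYCBP2. Fbxo45 had normalized counts of 925, 989.6 and 850.2 across Nae1T-KO replicates 1 to 3, next to 686, 689.9 and 723 for Nae1WT. These groups did not overlap either, and the log2 fold change was 0.39 ± 0.08 (SE, limma, adjusted p = 0.0124). The Fbxo45 call ended without Nae1WT replicate 2 (0.38, adjusted p = 0.0501; over all alternatives 0.00187 to 0.218). Fbxo11 lies at chromosome 17, bases 87990859 to 88066045, Ccnf at chromosome 17, bases 24223230 to 24251409 and Fbxo45 at chromosome 16, bases 32230112 to 32247025.

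Fbxo8, which joins an F-box to a Sec7 domain of the kind that acts on ARF GTPases, had normalized counts of 408, 382 and 373 across Nae1T-KO replicates 1 to 3, next to 499, 569 and 535 for Nae1WT. Each Nae1T-KO library was lower than each Nae1WT library. The means were 387 ± 18.5 against 534 ± 35.1 (SD, n = 3 each) and the log2 fold change was -0.46 ± 0.09 (SE, limma, adjusted p = 0.0106). The call ended without Nae1WT replicate 2 (-0.41, adjusted p = 0.0523; over all alternatives 0.00158 to 0.10). Fbxo8 lies at chromosome 8, bases 56551154 to 56593939, on the chromosome of Nae1 but 47.9 Mb away. Between libraries of the same sex, the log2 difference was -0.61 to -0.39 for Fbxo8, -0.39 to -0.26 for Fbxw8, 0.62 to 0.73 for Fbxl19, 0.41 to 0.68 for Fbxw7, 0.32 to 0.54 for Fbxo11 and 0.30 to 0.45 for Fbxo45. The groups did not overlap for any called gene, so the sign of these same-sex differences, also for Ccnf, was fixed in advance. With sex as a covariate in limma all 7 called genes were called again, together with Fbxo34 (adjusted p = 0.0408).

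**Figure D3:**
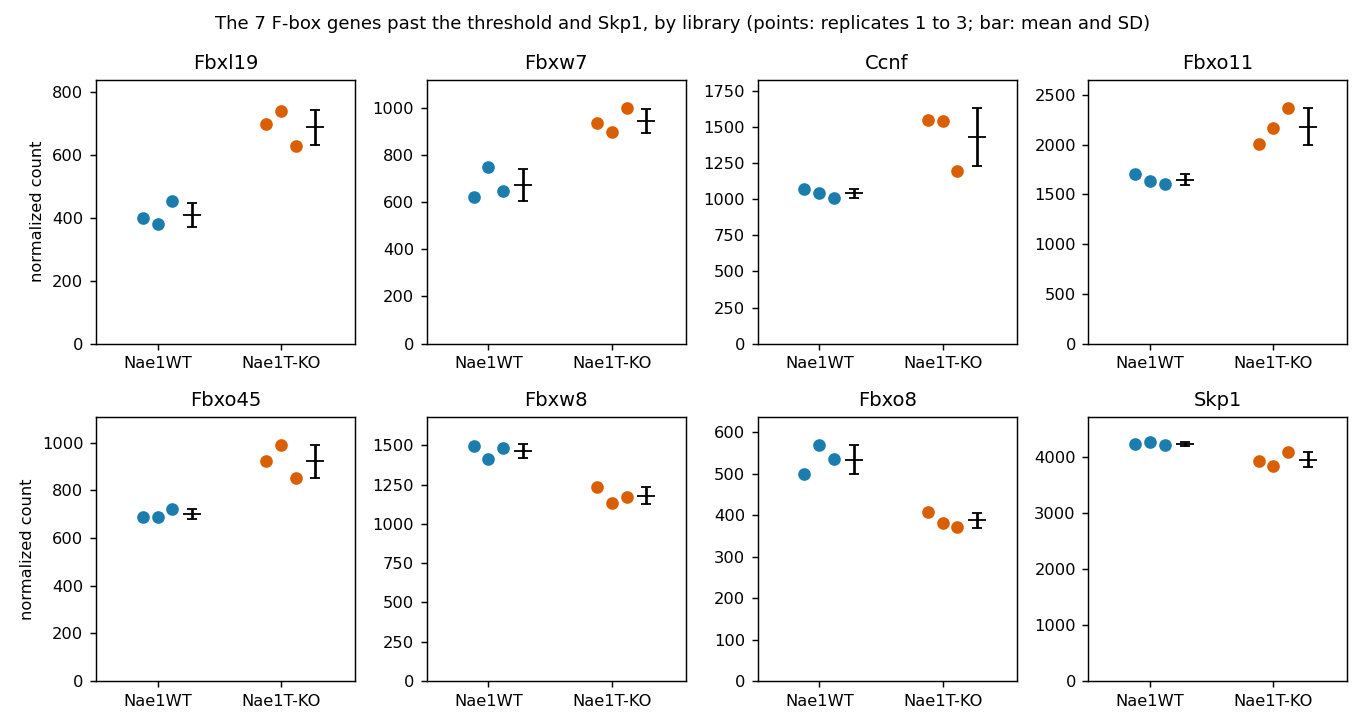
Normalized counts (y axis, from 0) of the 7 genes past the threshold and of Skp1 in each library, with points for replicates 1 to 3 from left to right and a bar for mean and SD (n = 3). The groups do not overlap in any panel. Ccnf has the largest SD of the 8 genes within Nae1T-KO, 201.

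Several FBXO genes with known substrates in lymphocytes or the cell cycle did not pass. Fbxo5 had normalized counts of 1459.5, 1289 and 1619 across Nae1T-KO replicates 1 to 3, next to 1321, 1430.0 and 1345 for Nae1WT, with overlap and a log2 fold change of 0.09 (limma, 95% interval from -0.11 up to 0.28, adjusted p = 0.56). FBXO38 is a receptor for the inhibitory receptor PD-1 in T cells, and Fbxo38 had normalized counts of 1021, 1124 and 889 across Nae1T-KO replicates 1 to 3, next to 1358, 1068 and 1158 for Nae1WT. Only Nae1WT replicate 2 lay within the Nae1T-KO range, and the log2 fold change was -0.24 (limma, 95% interval from -0.48 up to 0.00, adjusted p = 0.176). Fbxo4 and Fbxo31, both described as receptors for cyclin D1, had log2 fold changes of -0.04 (limma, 95% interval from -0.34 up to 0.26, adjusted p = 0.875) and -0.09 (limma, 95% interval from -0.32 up to 0.15, adjusted p = 0.634). The Fbxo4 estimate was positive with total-count scaling (0.00557) and without Nae1T-KO replicate 3 (0.0568). FBXO7 binds a regulator of the proteasome, and Fbxo7 had normalized counts of 319.9, 324 and 337 across Nae1T-KO replicates 1 to 3, next to 363, 353 and 353 for Nae1WT. Its groups did not overlap, but the log2 fold change was -0.12 (limma, 95% interval from -0.33 up to 0.08, adjusted p = 0.41). Fbxo32, the muscle atrophy receptor atrogin-1, was low and uneven at 82.9 ± 19.2 and 77.6 ± 15.1 (SD, n = 3 each), and the sign of its estimate of 0.09 turned without Nae1T-KO replicate 2 (-0.0812) or Nae1WT replicate 3 (-0.0503).

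Fbxo15 had the largest estimate of all 55 genes and did not pass. It is known as a gene of embryonic stem cells. It had normalized counts of 10.1, 19.4 and 14.1 across Nae1T-KO replicates 1 to 3, next to 3.68, 9.41 and 6.85 for Nae1WT, a log2 fold change of 1.05 (limma, 95% interval from 0.05 up to 2.06, adjusted p = 0.155). It was tested only because the 3 Nae1T-KO libraries reached 10, so a difference was built into its selection. Fbxo44 had normalized counts of 53.7, 43.2 and 39.4 across Nae1T-KO replicates 1 to 3, next to 78.6, 52.3 and 60.1 for Nae1WT, with overlap, and a log2 fold change of -0.47 (limma, 95% interval from -0.98 up to 0.04, adjusted p = 0.203). Fbxo6, which recognises N-glycans on misfolded glycoproteins, had normalized counts of 303, 288 and 297 across Nae1T-KO replicates 1 to 3, next to 219, 269 and 222 for Nae1WT. The Nae1T-KO libraries were all higher, and the log2 fold change was 0.33 (limma, 95% interval from 0.07 up to 0.59, adjusted p = 0.0883). Fbxo34 had normalized counts of 586, 621 and 746 across Nae1T-KO replicates 1 to 3, next to 522, 538 and 515 for Nae1WT, also without overlap, and a log2 fold change of 0.30 (limma, 95% interval from 0.08 up to 0.53, adjusted p = 0.075).

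The remaining FBXO genes are given by the means in Nae1T-KO and Nae1WT, and none passed. The higher of these were 1491 and 1515 for Fbxo33, 1153 and 1138 for Fbxo3, 954 and 915 for Fbxo42, 832 and 826 for Fbxo22 and 888 and 819 for Fbxo28. FBXO22 targets BACH1, a repressor of antioxidant genes, and its gene was level, at 796.7 to 856 in the 6 libraries. Fbxo30 had 611 and 446, with Nae1WT replicate 1 (324) far below the other 2 of its group, Fbxo21 had 512 and 447, Fbxo9 had 388 and 456 and Fbxo46 had 368 and 299. The Fbxo21, Fbxo30 and Fbxo46 groups did not overlap. Lower down were Fbxo25 at 188 and 185, Fbxo48 at 141 and 138 and Fbxo17 at 117 and 156. Near the floor were Fbxo10 at 27.6 and 29.0, Fbxo47 at 19.98 and 27.8 and Fbxo36 at 20.8 and 18.3.

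Precision differed with level. Of the 48 genes that did not pass, 32 had a 95% interval inside a 1.5-fold change in either direction, and 16 had an interval that reached it, 11 of them genes with a mean under 100 normalized counts. All 7 called genes had a mean of at least 460.8, and none of the 12 genes with a mean under 100 was called. The median coefficient of variation between replicates was 9.36% in Nae1T-KO and 8.87% in Nae1WT. Changes of at least 1.5-fold were estimated for 4 of the 55 (Fbxl19, Fbxl22, Fbxw10 and Fbxo15), beside 11.7% of all tested genes. Of these 4, Fbxo15 was tested only through its Nae1T-KO libraries.

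The receptor transcripts were also summed per library. The summed level of the 54 F-box genes was 8849.8, 8787 and 8617 normalized counts per kb in Nae1T-KO replicates 1 to 3 and 8287, 8290.4 and 8349 in Nae1WT. Skp1 on the same scale was 2107, 2054 and 2190.2 against 2263, 2283 and 2253. The ratio of the sum to Skp1, which does not depend on the scaling between libraries, was 4.20, 4.28 and 3.93 for the Nae1T-KO libraries, next to 3.66, 3.63 and 3.71 for Nae1WT. The ranges did not overlap, and Nae1T-KO replicate 3 was the nearest to Nae1WT. Without the 7 called genes the sum was 7059, 6966 and 6864 per kb against 6793, 6799 and 6861, so replicate 3 of each group nearly met. The ratio was then 3.35, 3.39 and 3.13 against 3.00, 2.98 and 3.05, and it also carries the difference in Skp1, which was not called. Since these sums run over chosen genes they carry no test.

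**Figure D4:**
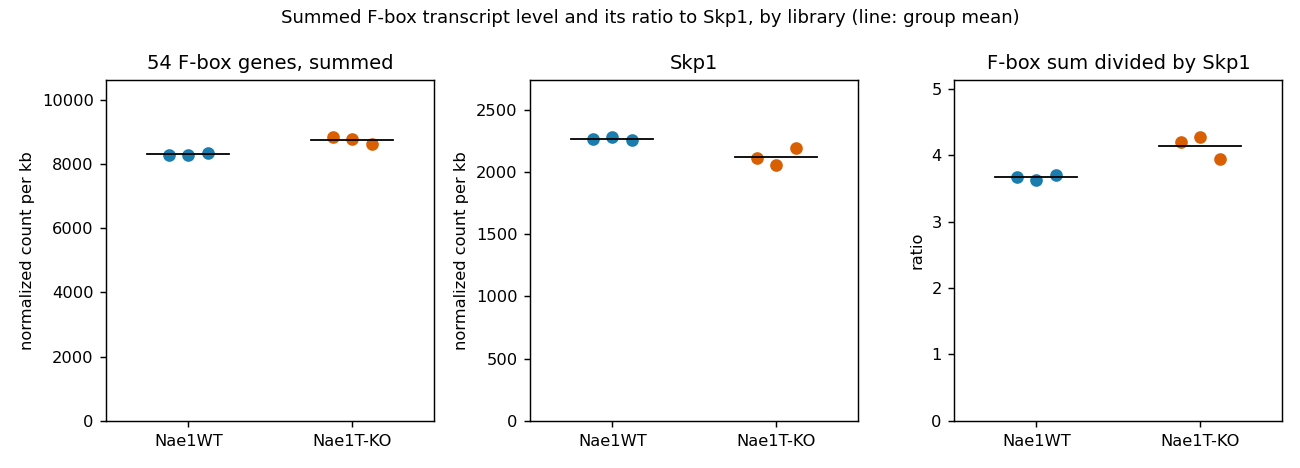
Summed level of the 54 F-box genes, level of Skp1 (both in normalized counts per kb) and their ratio in each library (points) with the group mean (line). The ratio is 3.93 to 4.28 in Nae1T-KO and 3.63 to 3.71 in Nae1WT.

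Promoter windows from RefSeq (GRCm38.p6), 250 bases before to 50 after a transcription start, were matched by symbol for 41 of the 55 genes with 58 windows, among them 5 of the 7 called genes and not Fbxo45 or Fbxw8. Cell cycle promoters of the G2 phase are known for a CHR element next to CCAAT boxes. The CHR letters TTTGAA, on either strand, were in 13 of the 58 windows against 13.5% of all 15830, and CCAAT, on either strand, in 18 of the 58 windows against 37.4% of all. CHR letters were in 2 of 8 windows of genes called higher and in the 1 window of a gene called lower. Among genes not called they were in 10 of 49 windows. The antioxidant response element TGACNNNGC was in 7 of the 58 windows against 14.0% of all, the AP-1 site TGANTCA in 3 of the 58 windows against 5.62% of all, the E-box CACGTG in 5 of the 58 windows against 9.28% of all, and the cyclic AMP response element TGACGTCA in 2 of the 58 windows against 2.75% of all. The E2F letters TTTCCCGC, TTTCGCGC, TTTGCCGC or TTTGGCGC were in 0 of the 58 windows against 3.61% of all. All were searched on both strands, and TGACNNNGC can overlap the AP-1 or cyclic AMP letters. Windows of 1 gene can overlap each other, and a match is a description of the letters only.

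The 200 bases before the start are shown 5′ to 3′ for the called genes with a CHR match (Ccnf, Fbxl19 and Fbxo8). Those of Skp2 and Fbxo5, F-box genes of the cell cycle that were not called, are shown so that the layouts can be compared. Capitals mark CHR and CCAAT letters on either strand. For Fbxl19, which has more than 1 listed start, the window with the match is shown.
Ccnf, chr17:24251410-24251609, minus strand: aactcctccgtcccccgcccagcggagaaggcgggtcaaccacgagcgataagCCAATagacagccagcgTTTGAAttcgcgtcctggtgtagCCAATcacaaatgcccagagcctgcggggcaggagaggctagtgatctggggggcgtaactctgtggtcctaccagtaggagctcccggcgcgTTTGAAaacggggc
Skp2, chr15:9155426-9155625, minus strand: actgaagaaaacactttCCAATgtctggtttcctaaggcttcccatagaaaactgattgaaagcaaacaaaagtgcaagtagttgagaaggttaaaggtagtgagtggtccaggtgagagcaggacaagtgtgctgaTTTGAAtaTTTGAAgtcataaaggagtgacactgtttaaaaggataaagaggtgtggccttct
Fbxo5, chr10:5805466-5805665, minus strand: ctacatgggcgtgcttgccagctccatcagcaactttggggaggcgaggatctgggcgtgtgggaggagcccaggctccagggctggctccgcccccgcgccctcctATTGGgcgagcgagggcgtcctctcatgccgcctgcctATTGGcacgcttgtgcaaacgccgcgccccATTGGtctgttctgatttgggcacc
Fbxl19, chr7:127746575-127746774, plus strand: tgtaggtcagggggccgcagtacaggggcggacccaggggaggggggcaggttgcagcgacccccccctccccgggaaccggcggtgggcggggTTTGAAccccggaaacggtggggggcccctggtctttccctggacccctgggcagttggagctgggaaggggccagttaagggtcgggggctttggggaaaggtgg
Fbxo8, chr8:56550954-56551153, plus strand: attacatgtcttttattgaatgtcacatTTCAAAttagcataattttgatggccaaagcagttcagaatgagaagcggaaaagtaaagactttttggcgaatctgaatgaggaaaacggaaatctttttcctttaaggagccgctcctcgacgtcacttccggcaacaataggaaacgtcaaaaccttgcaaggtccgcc
Ccnf holds 2 CHR matches, the nearer beginning 14 bases before the start, and 2 CCAAT boxes. Skp2 holds 2 CHR matches and 1 CCAAT box, and Fbxo5 holds 3 CCAAT boxes in this stretch, with a CHR match just after the start and so outside it. Fbxl19 and Fbxo8 each hold 1 CHR match and no CCAAT box. Of these 5 genes, Ccnf and Fbxl19 were called higher and Fbxo8 lower. Skp2 and Fbxo5 were not called, with log2 fold changes of 0.15 and 0.09. Whether these letters bear on the differences was not tested.

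The SCF machinery around the receptors was described from context lists. Of 11 tested core and assembly factors, Skp1 among them, 0 were higher and 1 was lower at the adjusted threshold in limma. DESeq2 called 2. At an unadjusted limma p under 0.05 in either direction stood 5 of the 11, beside 4024 of all 13819 tested genes. The lower gene was Usp15, a deubiquitinase bound to the COP9 signalosome, with 3046 ± 152 against 3761 ± 28.5 (SD, n = 3 each) and a log2 fold change of -0.31 ± 0.06 (SE, limma, adjusted p = 0.013). That count was 0 without Nae1WT replicate 2 or 3 and 3 without Nae1T-KO replicate 3 or Nae1WT replicate 1. The scaffold gene Cul1 had normalized counts of 3159.5, 3147 and 3233 across Nae1T-KO replicates 1 to 3, next to 3147, 3391 and 3265 for Nae1WT, a log2 fold change of -0.04 (limma, 95% interval from -0.18 up to 0.10, adjusted p = 0.726). Rbx1, the RING subunit, had -0.18 (limma, 95% interval from -0.40 up to 0.03, adjusted p = 0.229), and Cks1b, the cofactor of SKP2, 0.04 (limma, 95% interval from -0.10 up to 0.18, adjusted p = 0.729). None of 3 tested partners of the CUL7-FBXW8 complex was called by limma, edgeR or DESeq2, with 1 at an unadjusted p under 0.05 and 1 called without Nae1T-KO replicate 3. Among 13 NEDD8 pathway genes 2 were higher and 2 lower, counting the deleted gene Nae1 itself (log2 fold change -2.27), whose call the design fixed. The other calls were the NEDD8 co-ligase gene Dcun1d3 at 1.15, the E2 gene Ube2m at 0.25 (limma, adjusted p = 0.0481) and Dcun1d1 at -0.24 (limma, adjusted p = 0.0498). The split of 2 and 2 was 2 and 1 with each other scaling. The 4 calls became 2 without Nae1T-KO replicate 1, Nae1WT replicate 2 or Nae1WT replicate 3.

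Transcripts of 44 textbook SCF substrates had 5 members higher, 5 lower and 34 not called, with a median log2 fold change of 0.01. The largest changes were in Cdkn1a, which encodes the SKP2 substrate p21, at 0.85 ± 0.08 (SE, limma, adjusted p = 4.25e-04), in Per2, a circadian beta-TrCP substrate, at -0.84 ± 0.16 (SE, limma, adjusted p = 0.00942), and in Jun, an FBXW7 substrate, at 0.60 ± 0.08 (SE, limma, adjusted p = 0.00126). The 10 calls became 5 without Nae1WT replicate 3. Of 29 S phase and mitosis genes 5 were higher and 3 lower, with a median of 0.01, and 8 higher and 3 lower with total-count scaling. E2f7 was at 0.65 ± 0.12 (SE, limma, adjusted p = 0.00638), Mcm5 at -0.39 ± 0.07 (SE, limma, adjusted p = 0.0071) and Mcm2 at -0.36 ± 0.06 (SE, limma, adjusted p = 0.00552). These 8 calls became 3 without Nae1T-KO replicate 1 or Nae1WT replicate 2, and 4 without Nae1T-KO replicate 2 or Nae1WT replicate 3. The shares of these lists that were called stand beside the 12.7% of all tested genes and come from few genes.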

How the data were processed

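Total RNA of frozen CD8+ T cell pellets was captured on poly-T beads, per the labels' protocols. A column per library was deposited by the authors, holding normalized counts, a signal with no negative values. bcl2fastq, HISAT2, DESeq2 1.42.0 and build mm10 are named, per the submitters' processing notes. The sources used here do not give the read counter, its annotation or its use of strand, so reads of overlapping genes may be shared, and 24 of the 55 genes overlap another measured gene by RefSeq span. Within a library, values were whole multiples of a single step (tolerance 0.001 of a read, 100% of values), which gave reads back as value divided by step. For Nae1T-KO replicate 3 the step was near 1, at 1.00977, and 100% of its values were whole multiples of that step within the same tolerance.

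The test was limma 3.58.1 (R 4.3.3, trend and robust, two-sided) on log2(normalized count + 1), which understates changes of low genes. It ran over 13819 genes with at least 10 in at least 3 libraries, with Benjamini-Hochberg adjustment and a threshold of 0.05. Alternatives were other scalings, filters and pseudocounts, count tests on recovered reads (DESeq2 1.42.0, edgeR 4.0.16, limma-voom), each library left out, replicate blocks and a sex covariate. On recovered reads, edgeR called 1796 genes and DESeq2 2047. The script was tested on simulated data. Exon lengths came from GENCODE annotation of GRCm38 and spans and promoters from RefSeq.

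Genes named with values were all called F-box genes, 17 set by name, the 5 highest per kb, the 5 largest changes that did not pass, the genes nearest the limit of 10, and up to 3 called genes of each other list with Cul1, Rbx1, Cks1b and Nae1. The choice to name the other F-box genes, and Il13 and Gata3 among the markers, was made with their values in view. A gene set by name is not reported here, in text or figures, but counts among the 55. The members and lists were chosen with earlier results of these data known.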

Additional observations from a re-analysis of the deposited data

How the results depend on the processing

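The 7 F-box calls were all kept in each of 11 alternatives (scalings, filters, pseudocounts, other tools and the sex covariate), which called 7 or 8. Leaving out 1 library gave 4 to 8 F-box genes and 842 to 1767 genes in all, 0 to 3 SCF core factors, 0 to 1 CUL7 partner, 2 to 4 NEDD8 genes, 5 to 10 substrates and 3 to 10 S phase and mitosis genes. Fewer libraries leave less power, and the cause was not tested further. DESeq2 called 2 SCF core factors, and NEDD8 calls were 2 without a filter and 2 with the sex covariate. Over the 19 alternatives the estimates of 15 of the 55 genes changed sign at least once, and 0 of these were called. Of the 25 genes followed value by value, signs turned for Fbxo4 (0.00557 with total-count scaling, 0.0568 without Nae1T-KO replicate 3), Fbxo32 (-0.0812 with Nae1T-KO replicate 2 left out, -0.0503 with Nae1WT replicate 3 left out) and Fbxw10 (-0.0972 with Nae1WT replicate 3 left out), none called. With 1 library left out, Fbxo32 ranged from -0.0812 to 0.249 and Fbxw10 from -0.0972 to 1.14. The median over the 55 was 0.01 to 0.09.

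Replicate numbers did not pair the libraries: correlations of same-numbered deviations were -0.13, -0.18 and -0.27 by title. A replicate block by title number gave 968 genes, 6 F-box genes (without Fbxw8, adjusted p = 0.0581), 0 SCF core factors, 2 NEDD8 genes, 5 substrates and 3 S phase and mitosis genes. A block by library number, on the 4 libraries that share one, gave 314, 1, 0, 2, 2 and 0 in that order, with fewer samples by construction. Genes under 100 normalized counts have wide intervals, so small changes in them were not detectable at this depth.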

Other observations

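Fbxo6, Fbxo44 and Fbxo2, whose products belong to the family of F-box proteins that bind glycoproteins, lie next to each other on chromosome 4 at bases 148145716 to 148152135, 148152799 to 148160183 and 148160198 to 148166420 (GRCm38). Their estimates did not point one way. Fbxo6 had a log2 fold change of 0.33 (limma, adjusted p = 0.0883) and Fbxo44 of -0.47 (adjusted p = 0.203), neither past the threshold, and Fbxo2 was too low to be tested. Fbxo27 and Fbxo17, of the same family, neighbour each other on chromosome 7, and Fbxo17 had -0.44 (adjusted p = 0.160) while Fbxo27 was too low to be tested. Whether members of these pairs differ from each other was not tested.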
